A study of Mus musculus with 3 samples.

Results

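The genes described here are the small nucleolar RNA (snoRNA) and small Cajal body RNA (scaRNA) genes that held reads in the cytosolic fraction of mouse macrophages. They were chosen by count: every transcript of the gene had to be annotated as snoRNA or scaRNA, and the expected count summed over the 3 libraries had to be 10 or more. Of 1558 genes annotated only as snoRNA or scaRNA, 31 met the rule and 63 held any count. The series listed 55536 Ensembl genes in all. The 31 genes carried 27 distinct symbols, 24 were annotated as snoRNA and 7 as scaRNA, and each had a single transcript.

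SnoRNAs are short nuclear RNAs that guide chemical modification of ribosomal RNA or take part in cutting its precursor. ScaRNAs guide such modification of spliceosomal RNAs in Cajal bodies. Box C/D RNAs bind fibrillarin and direct methylation of the ribose, whereas box H/ACA RNAs bind dyskerin and direct pseudouridine formation. Most mammalian snoRNAs are cut out of introns of a host gene, while U3 and a few others have promoters of their own. Their usual site is the nucleolus or the Cajal body, so a cytosolic fraction is not where they are most abundant.

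The series held 1 group of 3 biological replicates and no untreated cells. All were macrophages grown from bone marrow of C57BL/6J mice and exposed for 10 minutes to 100 ng/ml Lipid A, the lipopolysaccharide anchor that TLR4 binds, so each value is a level after stimulation and not a response to it. Total RNA of the cytosol, 1 µg per library, was depleted of ribosomal RNA, and a size range of 250 to 400 is labelled without its unit. Age and sex were not collected, and all 3 libraries carry the same donor identifier, so the tests measure only the spread between these samples. Counts over genes totalled 33825547, 54667365 and 43176007 in replicates 1, 2 and 3. On the scale of CPM, a count relative to the library's total, 3 counts came to 0.0887, 0.0549 and 0.0695. The median level of 6 macrophage markers was 694, 675 and 783 TPM, the deposited abundance scaled for length and depth, and of 18 markers of other blood and stromal cells all but S100a8 stayed under 1 TPM in every library.

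The sequences below are those on which the counting of these genes turned. They are GENCODE M21 transcripts on mm10, written 5′ to 3′ in the DNA alphabet. The U3 RNA is annotated at 4 Rnu3b loci on chromosome 11 within Tex14, and each locus carries 2 gene entries, of 216 and 215 bases. All 4 entries of 216 bases have the same sequence, and the 4 of 215 bases are that sequence without its last base, shown as a capital in the copy at chr11:87443237-87443452 on the plus strand. Rnu3a, the other U3 gene, at chr10:40258467-40258680 on the plus strand, likewise has entries of 214 and 213 bases that differ by the capital at the end, and its entry of 213 bases matches the longer Rnu3b1 entry at 85.2% of 216 aligned positions.
Rnu3b1: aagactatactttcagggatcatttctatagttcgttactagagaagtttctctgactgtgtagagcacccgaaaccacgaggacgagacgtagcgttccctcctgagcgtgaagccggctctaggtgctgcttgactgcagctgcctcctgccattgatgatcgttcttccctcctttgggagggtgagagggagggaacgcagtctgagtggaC
Rnu3a: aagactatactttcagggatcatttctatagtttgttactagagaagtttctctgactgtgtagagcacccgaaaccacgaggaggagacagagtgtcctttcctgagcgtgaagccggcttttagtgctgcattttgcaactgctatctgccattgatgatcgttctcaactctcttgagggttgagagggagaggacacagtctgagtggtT

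Snora73a and Snora73b, the H/ACA RNAs also called U17, lie on the minus strand of chromosome 4, at chr4:132352775-132352979 and chr4:132352322-132352526. They differ at 7 of 205 positions, given in capitals, and 3 of those are the last bases. Another relative, Gm26448 in Rpsa, was 88.3% identical to Snora73a and 87.8% to Snora73b.
Snora73a: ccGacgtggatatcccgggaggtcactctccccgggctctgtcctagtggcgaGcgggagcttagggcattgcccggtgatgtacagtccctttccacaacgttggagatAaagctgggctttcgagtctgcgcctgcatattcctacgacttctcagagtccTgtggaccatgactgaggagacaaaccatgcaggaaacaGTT
Snora73b: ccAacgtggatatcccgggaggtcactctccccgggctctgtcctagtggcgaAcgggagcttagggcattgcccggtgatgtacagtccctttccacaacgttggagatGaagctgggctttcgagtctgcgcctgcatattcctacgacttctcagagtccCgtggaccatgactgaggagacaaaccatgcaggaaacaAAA

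Gm25395 at chr1:87776938-87777209 and Scarna6 at chr1:87784556-87784820 share the host Atg16l1 and were 63% identical over 284 aligned positions. They are shown with the box C letters TGATGA near the 5′ end and the box D letters CTGA near the 3′ end in capitals. Gm22009, at chr3:69085105-69085447 on the minus strand, is shown by its first and last 60 bases in the same way, since it held most of the counts. Snord22, at chr19:8725866-8725991, is shown because it was counted without receiving any TPM, and of these letters it held CTGA only.
Gm25395: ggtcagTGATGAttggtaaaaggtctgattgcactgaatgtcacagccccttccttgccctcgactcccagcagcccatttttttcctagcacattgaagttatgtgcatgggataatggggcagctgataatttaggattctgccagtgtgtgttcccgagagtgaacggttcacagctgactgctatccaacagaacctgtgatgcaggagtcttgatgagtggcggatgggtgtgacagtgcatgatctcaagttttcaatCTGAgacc
Scarna6: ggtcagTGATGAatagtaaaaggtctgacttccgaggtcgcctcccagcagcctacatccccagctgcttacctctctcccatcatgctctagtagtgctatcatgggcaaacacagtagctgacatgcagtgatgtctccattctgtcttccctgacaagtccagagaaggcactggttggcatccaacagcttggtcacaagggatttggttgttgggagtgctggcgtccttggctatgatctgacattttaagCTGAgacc
Gm22009 5′ end: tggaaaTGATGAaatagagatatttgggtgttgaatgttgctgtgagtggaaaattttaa
Gm22009 3′ end: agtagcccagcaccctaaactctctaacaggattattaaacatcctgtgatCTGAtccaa
Snord22: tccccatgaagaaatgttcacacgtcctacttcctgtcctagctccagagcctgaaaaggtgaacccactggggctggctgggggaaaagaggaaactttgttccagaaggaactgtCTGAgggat

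TGATGA within the first 30 bases together with CTGA within the last 25 stood in 8 of the 31 genes (25.8%) and in 20.7% of the 1558 annotated ones. These were Gm22009, Scarna10, Gm23547, Gm25395, Scarna6, Snord17, Gm22486 and Snord15a. ACA exactly 3 bases before the 3′ end stood in 8 others, among them Scarna13, Snora73a and Snora73b (25.8%, against 19.3% of all annotated). Only the RNA strand was searched, and the remaining 15 genes matched neither pattern. Nothing follows from that for their class, since the U3 entries, a box C/D RNA, are among them.

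Counted genes were mostly long ones. The 31 genes ran from 126 to 414 bases with a median of 215, against a median of 128 over all annotated snoRNA and scaRNA genes. None of 462 annotated genes shorter than 100 bases held a count, and of 212 genes of 100 to 124 bases 1 did, with less than 1 count. In the class of 125 to 149 bases, 35 of 819 genes held a count and 7 (0.85%) reached 10. At 200 to 249 bases 14 of 28 genes reached it (50%), and from 250 bases upward 7 of 11 did (63.6%). Of the 31, 7 were thus at or above 250 bases and 24 below. The 14 genes of 200 to 249 bases include the 8 Rnu3b entries and 1 Rnu3a entry. These U3 entries weigh on that share and on the median of 215 bases.

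**Figure D1:**
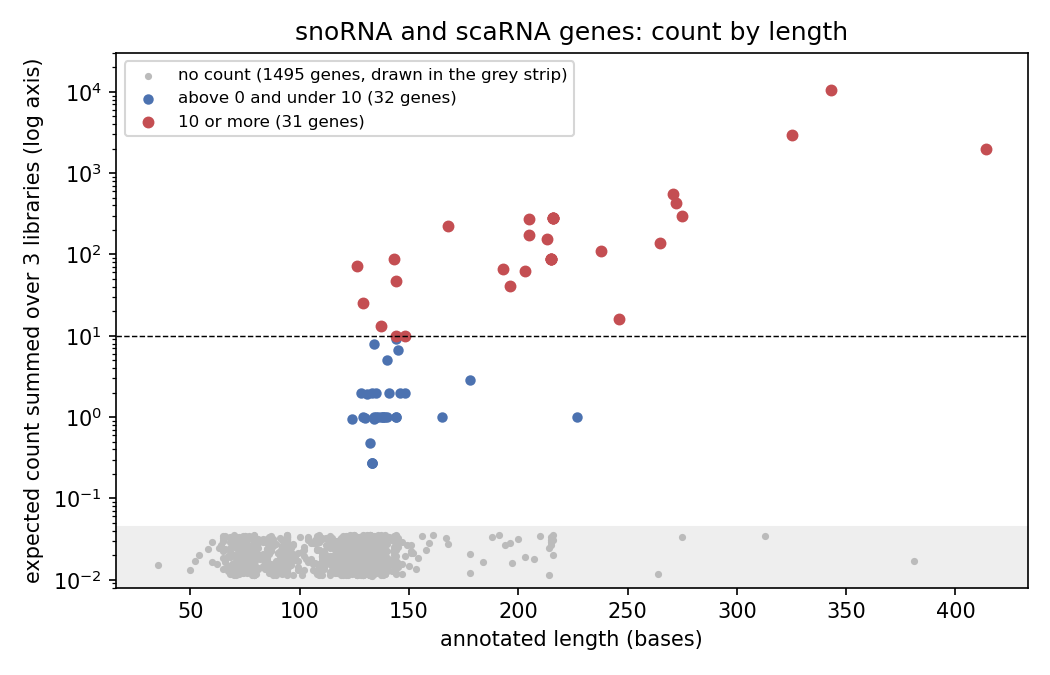
Annotated length in bases (x axis) against expected count summed over 3 libraries (y axis, log scale) for the 1558 genes annotated only as snoRNA or scaRNA, with the dashed line at 10 counts. Genes without a count lie in the grey strip, and every gene shorter than 100 bases lies there.

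The deposited effective length is in essence the number of positions at which a fragment of the library could start, and it shrank faster than the annotated length. The constant subtracted from long transcripts was 251, 218 and 228 bases in replicates 1, 2 and 3, so replicate 1 had the longest fragments. Annotated genes of up to 142, 130 and 132 bases had an effective length of 0 in those libraries, which took in 1441, 959 and 1200 of the 1558. The part of fragment length in which genes held counts was not tested.

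Counts were concentrated in a few genes. The 31 genes held 19702 counts in all, of which Gm22009 alone had 53.5% and the top 3 genes, with Scarna10 and Scarna2, 78.3%, while the median gene had 109. Together they made up 0.0147% ± 0.00277 of all gene counts (SD, n = 3) but 0.163% ± 0.0383 of TPM. TPM divides by the effective length, which was short for these genes.

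**Figure D2:**
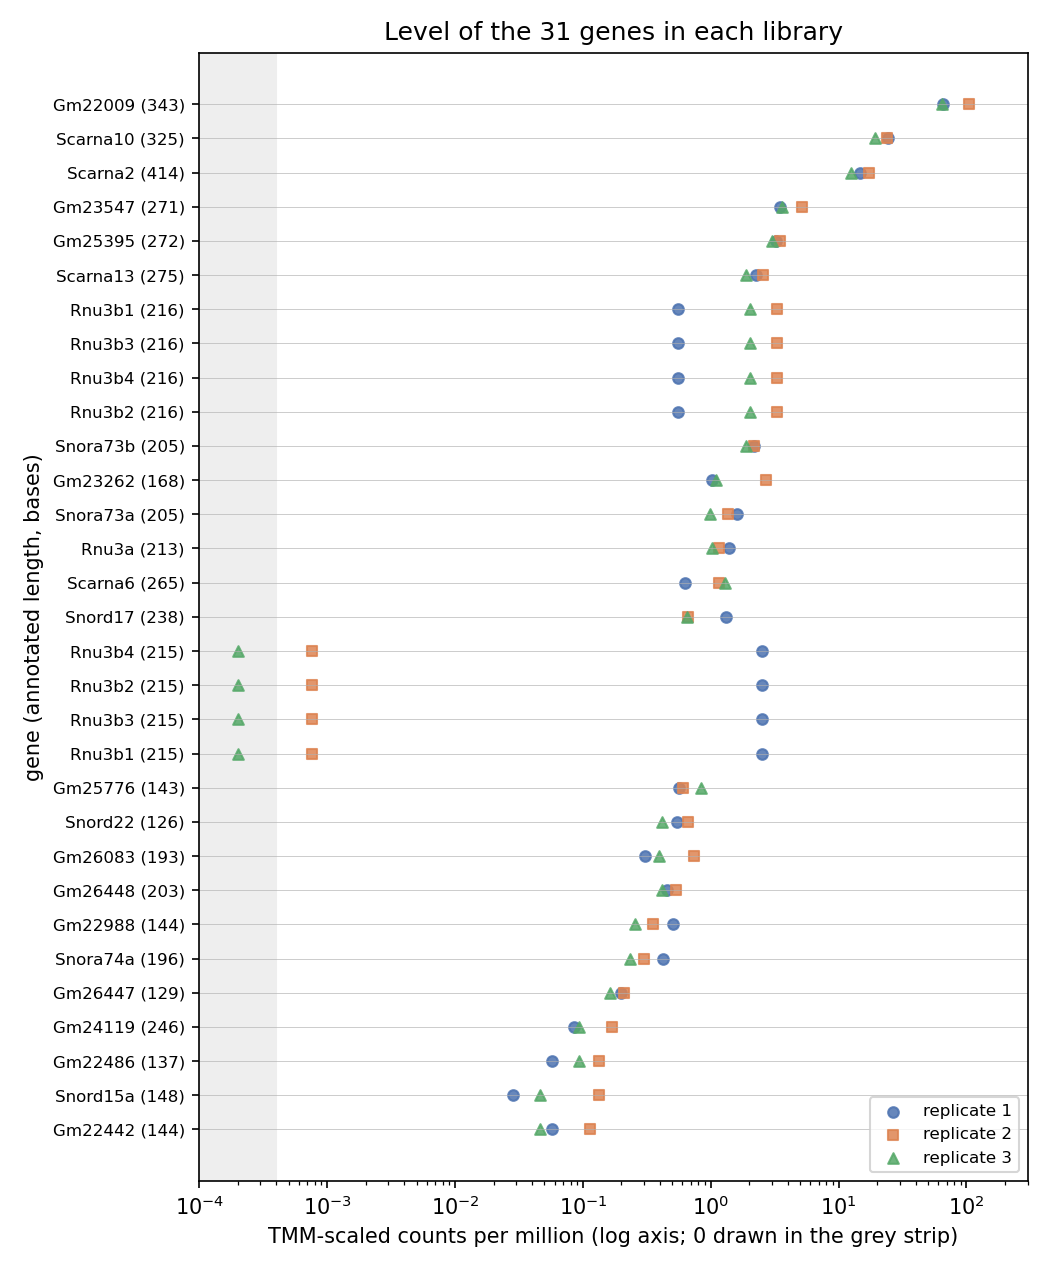
TMM-scaled CPM (x axis, log scale) of the 31 genes in each library, ordered by summed count, with annotated length in brackets. Points of the 3 libraries nearly coincide for Gm25395 and Snora73b, and lie far apart for the Rnu3b entries, where values of 0 are drawn in the grey strip.

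Among scaRNAs, Gm22009, a gene of 343 bases in an intron of the importin gene Kpna4, had the highest level. It held 2284, 5495 and 2755 counts, or 64.9, 104 and 64.2 CPM after TMM scaling of library sizes, and 341, 414 and 300 TPM over effective lengths of 100, 130 and 121 bases. Replicate 2 stood above the others, and the count test described below called it. Scarna10, known as U85 and a guide for the U5 spliceosomal RNA, held 857, 1258 and 821 counts and 151, 109 and 103 TPM. Replicate 3 was its lowest library by count, at 19.1 CPM against 24.4 and 23.8. Scarna2, a guide for U2 and at 414 bases the longest of the 31, held 521, 907 and 536 counts and 47.2, 44.9 and 37.6 TPM. Its libraries lay within 1.38 times of each other by scaled count.

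The other scaRNAs were lower. Scarna13 (U93) had 80, 135 and 81 counts, 25.4, 18.9 and 16.9 TPM, and no difference between libraries that passed the test. Scarna6, with 22, 61 and 55 counts and 8.09, 9.62 and 13.0 TPM, was lowest in replicate 1. Its neighbour in Atg16l1, Gm25395, had 113, 184 and 129 counts and scaled levels of 3.21, 3.48 and 3.00 CPM that were nearly level. Of the other genes annotated as scaRNA, Gm26083 in Snhg20 had 10.7, 39.4 and 16.8 counts, with replicate 2 highest, and Gm22442 in the chromatin remodeller gene Chd3 had 2, 6 and 2. Of 6 scaRNAs listed by name, Scarna9 (70 bases) and Scarna17 (79 bases) had no count.

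Box H/ACA RNAs with a role in cutting the rRNA precursor were led by Snora73b. It held 76.7, 114 and 80.4 counts, which scaled to 2.18, 2.16 and 1.87 CPM, so the libraries hardly differed. Its TPM of 92.2, 49.3 and 53.6 was nonetheless highest in replicate 1, where the effective length was 12.5 bases against 22.7 and 19.8. Snora73a, which differs from it by the capitals printed above, held 56.7, 72.4 and 42.5 counts and 68.3, 31.3 and 28.3 TPM. The deposited posterior SDs of these counts were under 1 in every library for both genes, so reads were assigned to the copies with little doubt. Snora74a (U19) had 14.8, 15.8 and 9.94 counts, all in a stretch that a retained-intron transcript also covers. Gm26448 had 16, 28 and 18 counts, which came to nearly the same scaled level in each library.

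U3, a box C/D RNA that takes part in cutting the rRNA precursor rather than in modifying it, gave 9 of the 31 genes. The 4 Rnu3b entries of 216 bases each held 19.5, 174.7 and 86.3 counts, and the 4 of 215 bases each held 88.5, 0.04 and 0 counts. Replicate 1 therefore put most U3b reads on the shorter entries and replicates 2 and 3 on the longer. Summed over all 8 entries, the counts were 432, 699 and 345, or 12.3, 13.2 and 8.03 CPM. The ratio of the highest to the lowest library fell from 5.96 for the longer entries alone to 1.65 for the sum. The posterior SD of an Rnu3b count ran from 19.4 to 137, larger than many of the counts. The level of a single Rnu3b entry is thus uncertain, and only the sum over entries is read here.

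The second quantification, which the authors derived directly from the reads, split them otherwise. It gave 662, 1112 and 558 counts to the entries of 216 bases and none to those of 215. For Rnu3a the first quantification placed 49, 61 and 44 counts on the entry of 213 bases and 0 on that of 214, and the second placed 0 on the former and 95, 158 and 85.3 on the latter. All 10 U3 entries together had 1630 counts in the first and 2669 in the second.

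**Figure D3:**
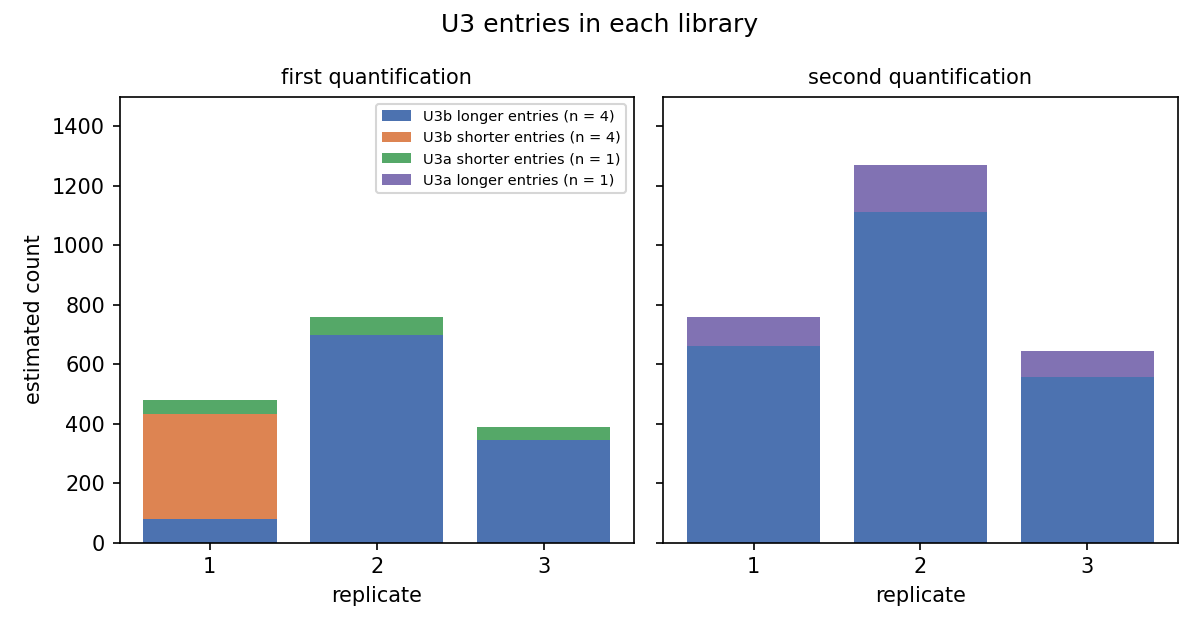
Estimated counts (y axis) of the U3 entries stacked by annotated length in replicates 1 to 3 (x axis), for the first quantification on the left and the second on the right. The 215-base U3b entries hold 354 counts in replicate 1 of the first quantification and almost none elsewhere, while totals of the second are higher in every library.

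Gm23547 in Phb2, which holds both box C and box D letters, had 122, 273 and 155 counts, more than any other single snoRNA entry not named as a scaRNA. Other snoRNA genes with both sets of letters were lower. Snord17, in an intron of Snx5, held 46, 35 and 28 counts, or 1.31, 0.66 and 0.65 CPM, and stood about 2.01 times higher in replicate 1 than in replicate 3. Gm22486, which RefSeq names Snord94 at the same coordinates, held 2, 7 and 4 counts. Of the genes without them, Gm24119, in an intron of the phosphate carrier gene Slc25a3, held 3, 9 and 4, and Gm26447 in Eif4a2 held 6.98, 11 and 6.99. Snord15a, which has both sets of letters and lies in the ribosomal protein gene Rps3, held 1, 7 and 2. Gm22486, Gm24119, Gm26447, Snord15a and Gm22442 were too low to enter the count test. Snord15a sat at the threshold with a sum of 10, together with Gm22442, while Gm22486 followed with 13. The genes just outside were Gm25835 with 9, Gm26397 with 8 and Snord15b, also in Rps3, with 6.76.

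Of 9 snoRNAs matched on a list of 10 that act in rRNA processing, 3 held 10 or more counts (Snora73a, Snora73b and Snord22). None of the 3 was called different between libraries by the test described below, which called 50.2% of all genes. The unmatched symbol was Snord3a, a name for U3, whose Rnu3b entries are given above. Snord22 (U22) held 19, 35 and 18 counts. Snord118 (U8), Snord13 and the 4 Snord14 genes, of 86 to 135 bases, had no count. The snoRNAs of Rpl13a that have been tied to lipotoxic stress, Snord32a, Snord33, Snord34 and Snord35a, and Snord60 had none either, and neither did the Gas5 snoRNAs Snord47, Snord78 and Snord80. The Rpl13a and Gas5 genes and Snord60 are 90 bases or shorter, where the effective length was 0 in every library. An absence of counts at such lengths does not show an absence of the RNA. None of the imprinted Snord113, Snord114, Snord115 and Snord116 symbols matched a gene.

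Some genes ranked high by TPM on few counts and an effective length of a few bases. Gm25776, 143 bases in an intron of Gtf2a1, had 20, 32 and 36 counts but 282, 129 and 228 TPM, with effective lengths of 1.06, 2.43 and 2.08 bases. It ranked 2 by TPM and 21 by count. Gm22988 in Eif4a1 had 17.9, 18.8 and 10.9 counts and 237, 71.5 and 65.3 TPM, and ranked 4 by TPM and 25 by count. Gm23262, 168 bases in Eif4g2, ranked 3 and 12, with 36, 143 and 46.9 counts and 144, 181 and 92.8 TPM.

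The reverse was also seen. Snord22 and Gm26447, with summed counts of 72 and 25, were listed at 0 TPM in every library because their effective length was 0, and Gm22486 was listed at 0 TPM in replicate 1 with 2 counts. By class, the median TPM was 9.39 ± 1.21 for the 3 Snord genes, 42.6 ± 22.3 for the 3 Snora genes and 31.8 ± 4.54 for the 4 Scarna genes (SD, n = 3 libraries). Divided by annotated in place of effective length the medians were 4.38, 8.57 and 28.8, and the Scarna genes were then highest.

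The median spread between libraries was wider for these genes than over all genes. The median SD of log2(TPM + 1) was 0.58 over the 31 genes and 0.09 over all 15796 genes that reached 10 counts in sum. Of the 24 genes with TPM above 0 in every library, 12 had a highest TPM at least 2 times the lowest, where 20.8% of all such genes did. By TMM-scaled count 11 of the 24 reached that ratio, where 18.3% of all genes did. The copies of U3b weigh on these values, since 4 of the 12 and 4 of the 11 are the Rnu3b entries of 216 bases. With U3 entries summed, 9 of 21 genes reached the ratio by TPM and 7 by scaled count, and the median SD was 0.43. Summed counts were also lower here, with a median of 109 against 1269 over those 15796 genes, and their part in the spread was not tested.

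Leaving out replicate 1 lowered the TPM spread most. Without it the median SD fell to 0.11 and 1 of the 24 genes had a TPM ratio of 2 or more, against 9 without replicate 2 and 11 without replicate 3. Over all genes the median SD without replicate 1 was 0.07. The share of all genes at that ratio was 10.6% without replicate 1, 15.8% without replicate 2 and 12.8% without replicate 3. With U3 entries summed the median SD of these genes fell from 0.43 to 0.14, against 0.42 without replicate 2 and 0.34 without replicate 3. In that form 15 of 21 genes were highest in replicate 1 by TPM, where 33.0% of all genes were, and 5 in replicate 2, where 13.2% were. By scaled count 7 were highest in replicate 1 and 12 in replicate 2, where 34.4% and 30.3% of all genes were. The median log2 ratio of replicate 1 to the mean of the other libraries was 0.33 by TPM and -0.34 by scaled count over the 24 entries, and 0.51 and -0.01 with U3 entries summed. Over all 15431 genes compared it was -0.04 and -0.03. The shift between both measures was 0.20 for Scarna2, the longest gene, and 1.10 for Gm22442 at 144 bases.

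**Figure D4:**
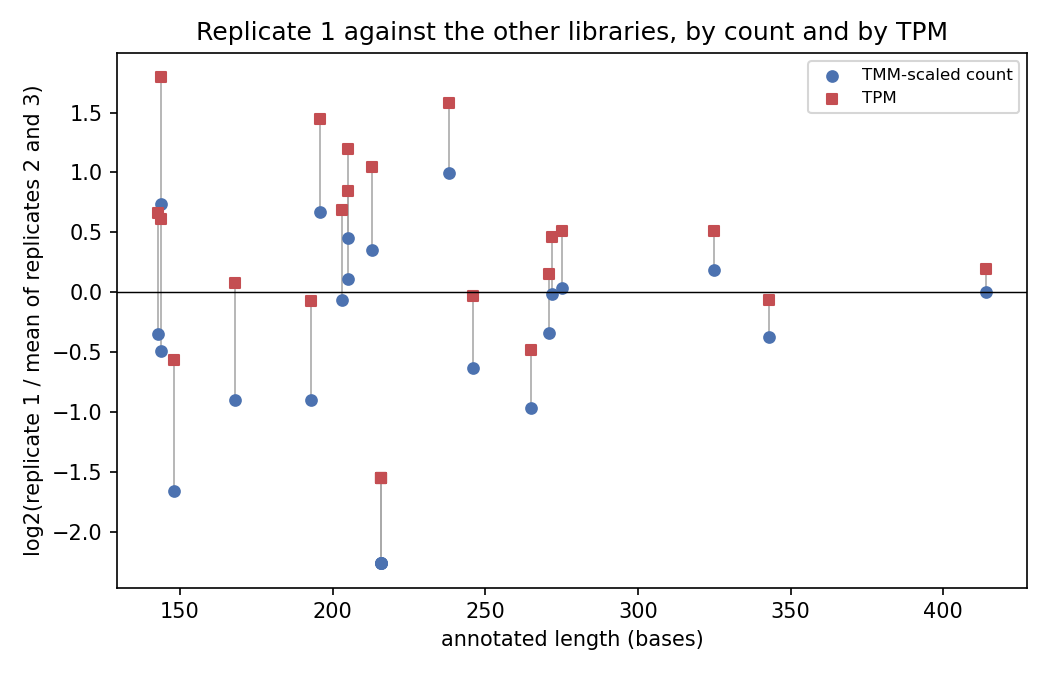
Log2 ratio of replicate 1 to the mean of replicates 2 and 3 (y axis) by annotated length in bases (x axis) for the 24 genes with TPM above 0 in every library, by TMM-scaled count (circles) and TPM (squares), joined for each gene. Each square lies above its circle, and the gap is widest for genes under 150 bases.

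A chi-square test of rounded counts against TMM effective library sizes, run over all genes whose counts summed to 30 or more and Benjamini-Hochberg adjusted at 0.05, called 50.2% of genes different between libraries. Of the 31 genes 26 were tested and 16 called (61.5%), near that background, and 8 of the 16 were the Rnu3b entries. With the U3 entries summed to 1 gene for U3b and 1 for Rnu3a, 9 of 19 were called against 50.1% of all genes, U3b among them (adjusted p = 5.25e-13) and Rnu3a not (adjusted p = 0.413). The test weighs counting error alone. With the common dispersion of an edgeR fit added, a coefficient of variation of 14.5%, 9 of 26 were called against 5.78% of all genes. With the U3 entries also summed only Gm23262 of 19 was, against 5.72% of all genes, while summed U3b had an adjusted p of 0.652.

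Gm23262 was the gene whose call held with that dispersion. Its scaled levels were 1.02, 2.70 and 1.09 CPM, a ratio of 2.65, and the adjusted p was 1.48e-10 by counting error and 0.00284 with the dispersion. Replicate 2 set it apart, and without replicate 2 the adjusted p was 0.837. Most of the gene (89.3% of its bases) also lies in an exon of a processed transcript of Eif4g2, whose own level was 703, 747 and 799 CPM.

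Calls outside U3 and Gm23262 were lost with the dispersion added. Gm22009 had an adjusted p of 2.77e-131 by counting error and 0.261 with the dispersion, at a ratio of 1.62, and without replicate 2 the p was 0.767. Scarna10 and Scarna2 had adjusted p-values of 8.35e-07 and 1.7e-07 that both became 1. Scarna10 also lost its call without replicate 3 (adjusted p = 0.654). Gm23547 went from 0.000191 to 1, and to 0.821 without replicate 2. Snord17 (0.00402), Gm26083 (0.0233) and Scarna6 (0.0277) lost their calls too, and each also lost it without replicate 1. Among genes not called were Snora73a (adjusted p = 0.078, but 0.031 without replicate 2 and 0.0471 when scaled to total counts), Scarna13 (0.155), Gm25776 (0.35) and Gm25395 (0.52).

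The count of the second quantification was a median 1.09 times that of the first, without scaling for library totals. Those totals were larger in the second, at 37331957, 66825833 and 55200830 in replicates 1, 2 and 3. In the first they were 33825547, 54667365 and 43176007. The 31 genes held a mean 0.0132% of counts in the second against 0.0147% in the first. The second count lay within 10% of the first for 12 of the 31 genes, more than 1.5 times above it for 8 and at 0 for 5. The 4 Rnu3b entries of 216 bases are among the 8, and the 5 at 0 are U3 entries. The shares of all genes were not computed for these counts. Gm22009 had 10613 against 10534. Larger gaps were seen for Gm22442, with 162 against 10, and for Snord17, with 208 against 109. Under the same threshold, not scaled for the larger totals, the second list held 74 genes. Of these 26 were shared, 83.9% of the first list and 35.1% of the second. Of the 48 others, 38 had no count at all in the first, and the 5 genes not shared from the first list were U3 entries that it put at 0. The second list reached shorter genes, with 10 under 100 bases and 7 of 100 to 124 bases, and it gave Snord118 47 counts, Scarna17 13 and Snord13 12.

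**Figure D5:**
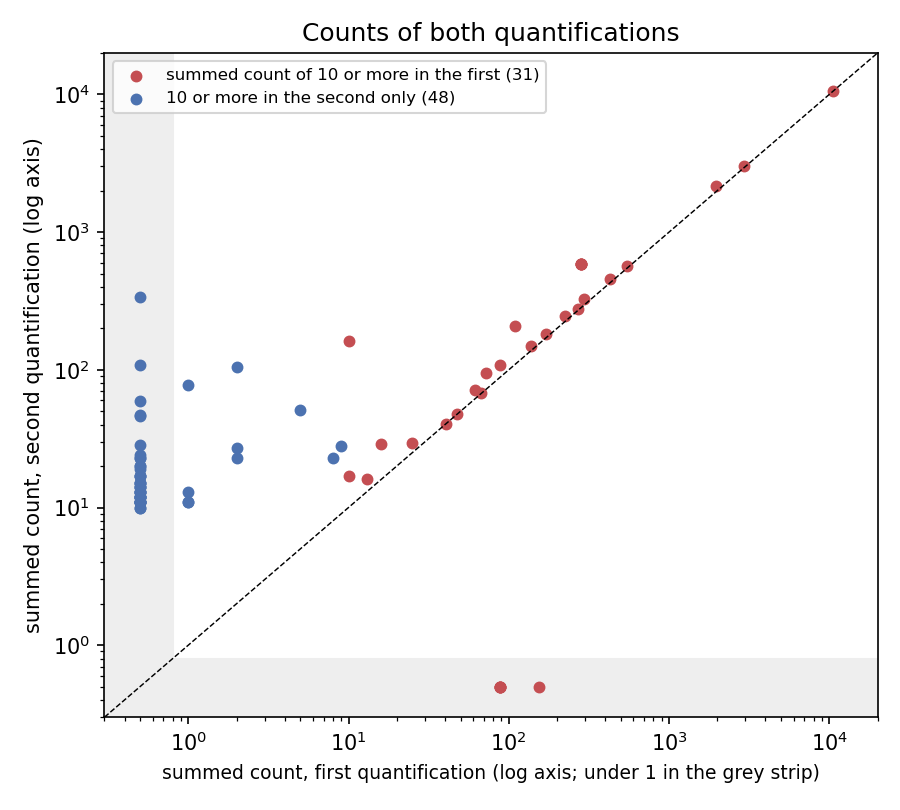
Counts summed over 3 libraries in the first (x axis) and the second quantification (y axis), both on log scales with values under 1 in the grey strips, for genes with 10 or more in either. Of the 31 genes, 12 lie within 10% of the dashed line of equal counts and 5 in the lower strip, while 48 genes reach 10 in the second only.

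TPM differed more than counts. The log2 ratio of the second to the first TPM had a median of -1.69 over the 31 genes and -0.99 over all genes. It was 2-fold or more lower in every library for 12 of the 31, where 2.35% of all genes were, and for 10 relative to the median of all genes, where 1.38% of all were. Rnu3a counts among both, although its 2 entries together were higher in the second quantification. The ratio was 2-fold or more higher for 2, where 0.329% of all genes were, and for the same 2 relative to the median, where 2.47% were. Those 2 were Snord22 and Gm26447, at log2 ratios of 6.33 ± 0.62 and 4.63 ± 0.67 (SD, n = 3), both listed at 0 TPM in the first. Gm25776 fell to 11.4, 6.34 and 7.44 TPM, with effective lengths of 20.5, 21.8 and 22.6 bases in the second quantification. Gm22988 (log2 ratio of -4.85 ± 0.41) and Gm23262 (-3.46 ± 0.23) moved likewise. Compared as CPM, the 213-base Rnu3a entry was 2-fold lower in every library, where 1.56% of all genes were, while the 214-base entry held 338 counts there. Gm22442 was 2-fold higher, where 1.49% were.

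Hosts were placed beside the genes they contain. Of the 31 genes, 21 lay on the same strand within a host other than Tex14, the 8 Rnu3b entries lay in Tex14, and Scarna2 and Rnu3a had none. Tex14, a gene of the germ line, held 2, 6 and 4 counts against 1476 for U3b. Scarna13 had 12.9 times the counts of Snhg10, Scarna10 had 1.59 times those of the condensin gene Ncapd2, and Gm22009 had 0.739 times those of Kpna4. By contrast Gm26448 held 0.00128 times the counts of Rpsa, and Snord15a 0.00031 times those of Rps3. Within Snhg1, Snord22 of 126 bases was counted and 7 other snoRNAs of 65 to 76 bases were not, while Snord22 itself lies wholly within Snhg1 exons. Within Eif4a2, Gm26447 of 129 bases was counted, and the 4 other snoRNAs there, of up to 178 bases, stayed under 10 counts.

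Some of the counts lie where a longer transcript also runs. Exons of genes of other types overlapped 10 of the 31 genes, 9 of them by at least 50% of their bases. Scarna10 was overlapped at 86.5%, Gm23547 at 57.2%, Snora73a at 77.6%, and Snord22, Gm26083, Gm22988, Snora74a and Gm26447 at 100%. Gm22009, Scarna2, Gm25395 and Scarna13 were not overlapped. The U3 entries were overlapped by no gene of another type, but the 2 entries of a locus cover each other. Snora73a and Snora73b also lie antisense to Gm17300, and whether the libraries kept strand is not given.

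The proteins that bind these RNAs were present as mRNA at modest levels. The count test, which called 50.2% of all genes, called 3 of 5 box C/D proteins matched, and fibrillarin (Fbl) had 20.5, 23.3 and 24.2 CPM. Of 6 box H/ACA proteins 1 was called, the assembly factor Naf1 at 14, 18.1 and 17.7. By scaled count all 5 of the former and 5 of the 6 latter were highest in replicate 3, where 35.2% of all genes were. Their ratios between libraries were up to 1.24, and Naf1, highest in replicate 2, had 1.29. Of Coil, Wrap53, Nolc1 and Tcof1, listed together, the count test called Nolc1 and Tcof1, and it called 1 of 7 assembly factors. Of 7 nuclear long noncoding RNAs with counts 6 were called, and 6 were highest in replicate 1, where 34.4% of all genes were. Pvt1 was the gene not called, and it was highest in replicate 3. Tug1 was called but nearly level, with 134, 129 and 121 CPM. Malat1 held 3656, 2351 and 1884 CPM and Neat1 452, 279 and 208. The gap was wider for Xist, with 274, 55.9 and 69.9 CPM, and for Kcnq1ot1, with 32.0, 6.47 and 4.24. Rn7sk held 13540, 17833 and 10917, highest in replicate 2 as Gm22009 was. Their part in the differences of the snoRNA and scaRNA genes was not tested.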

How the data were processed

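Total RNA-seq libraries of 3 replicates of 1 group were used. Per the file headers, the authors deposited expected counts and TPM per gene, in the layout RSEM writes, and estimated counts and TPM per transcript, in the layout kallisto writes, here called the second quantification and summed over the transcripts of a gene. Text files deposited beside them name assembly mm10 and annotation M21 and say that the first was derived from alignments to the transcriptome, without naming tools. Because TPM is scaled by effective length, values at effective lengths of a few bases are unstable. Library totals leave out entries that are not Ensembl genes.

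The 31 genes and the lists were chosen with earlier results of these data known. Members' values come from tables of all genes. Expected counts were rounded for the chi-square test against TMM effective library sizes (summed count of 30 or more, Benjamini-Hochberg at 0.05). Both quantifications were compared as log2 ratios of TPM with 0.1 added, and spread as the SD of log2(TPM + 1). Genes were named by rank of TPM and count, by class, by ratio between libraries and quantifications, by nearness to the threshold, by length, and by list, with their hosts. The chi-square call was tested on simulated counts that held counting error alone, without the wider spread seen between these libraries. TMM factors and dispersion came from edgeR 4.0.16 and alternative size factors from DESeq2 1.42.0, both in R 4.3.3. Other steps used Python 3.11.15 with scipy 1.17.1 and pandas 2.3.3.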

Additional observations from a re-analysis of the deposited data

How the results depend on the processing

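The number of genes stayed between 25 and 32 under the alternatives tried on the first quantification. It rose to 74 with counts of the second, whose library totals were larger. Leaving out a replicate gave 25 to 28 genes. The count of genes called between libraries was 16 or 17 of 26 under other scalings, where 49.4% to 52% of all genes were called. It was 16 of 31 with a summed count of 10 and with no count filter, where 45.5% and 31.7% of all genes were. With the second quantification it was 12 of 22, where 59% of all genes were. It fell to 9 with the common dispersion added, where 5.78% of all genes were called. Leaving out a replicate gave 9 to 15, with 27.5%, 42.3% and 35.5% of all genes called without replicates 1, 2 and 3. Alternatives added after seeing the data gave 8 of 26 with the deposited posterior variance, where 48.3% of all genes were called. There all 8 Rnu3b entries lost their call. With U3 entries summed 9 of 19 were called, and 1 of 19 with the dispersion as well, where 50.1% and 5.72% of all genes were. As CPM, 1 gene was 2-fold lower and 1 higher in the second quantification. With 5 TPM or more required, 1 was higher. Leaving out a replicate gave 12 to 24 lower genes, 24 without replicate 1, and 2 higher genes each time. Over all genes the median log2 ratio was -0.34, -1.21 and -1.46 in replicates 1, 2 and 3. In replicates 2 and 3 the median gene was thus itself more than 2-fold lower. The share of all genes was not computed with a replicate left out. The median SD of log2(TPM + 1) ran from 0.108 to 0.681 with a replicate left out, the lowest without replicate 1. The share of TPM was 0.0428% in the second quantification. Median TPM in the second was 6.13 for Snord, 8.53 for Snora and 14.3 for Scarna genes, and per annotated length 4.38 for Snord and 8.57 for Snora genes. By TPM of the second quantification 21 genes had a ratio between libraries of 2 or more. They were counted among those of the 24 genes with a second TPM above 0 in every library. The share of all genes was not computed, and the median log2 ratio over all genes given above already differed between replicates. Leaving out a replicate of the first quantification gave 1 to 11 genes, where 10.6% to 15.8% of all genes had that ratio. The cause of these shifts was not tested. No paired analysis was possible because the series holds 1 group. A count of 0 allows up to 3 counts, or 0.0549 to 0.0887 CPM, by counting error only. That bound does not apply where the effective length was 0, and it leaves out differences between quantifications. Snord118 had no count in the first and 21, 16 and 10 in the second.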
